A study of Mus musculus with 3 samples.

Results

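Cluster 8 was examined among CD4+CD8+ double-positive (DP) thymocytes, the cells that rearrange and test their T cell receptor (TCR) α chain in the thymus. The cells were those whose hashtag marked them as DP and whose cluster number in the authors' deposited clustering was 8. They numbered 769 of 3021 DP cells (25.5%, 95% interval 23.9 to 27.0) and of 12208 cells in all. Cluster 8 held 770 cells, of which 769 were DP and 1 was a Foxp3lo Treg progenitor. None of 2436 CD4 SP cells fell in it, which allows a share of up to 0.123%. The DP cells of cluster 6 (832 cells) and cluster 4 (1187 cells) were the closest large groups and served for comparison, together with CD4 single-positive cells (CD4 SP, 2436 cells).

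The study sorted pooled thymocytes of 8 female mice aged 7 to 12 weeks into 6 populations, each with its own hashtag antibody. The strain is labelled C56Bl/6- TCliβ x TCRα+/- x Foxp3-GFP: every cell carried the transgenic β chain TCliβ, 1 TCRα allele and a reporter of Foxp3, and this holds for cluster 8 and for every group it is set against. Every population was also sorted for Vα2 on the surface, a chain that TRAV14 genes encode. DP cells came from whole thymus without enrichment, while the other populations came from thymus depleted of CD8+ cells, so the sort differs between DP cells and the rest. The mice were pooled once, 1 set of libraries was made from the pool, and the mouse a cell came from is not recorded in the labels. There were thus no replicates and no test, and a difference has no replicate check. Intervals are 95% intervals that cover counting error only, exact Clopper-Pearson for shares, and treat cells of 1 clone as if they were independent. As used here, the matrix has no gene names on its rows. The DP identity of cluster 8 therefore rests on the hashtag, no marker was checked, and the cluster keeps its number.

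The TCRα locus rearranges in rounds. A first join links a TRAV gene near the TRAJ segments to a TRAJ segment on the TRAV side (high number), and each later join on the same allele removes the earlier one and links a TRAV gene farther out to a TRAJ segment closer to the constant gene TRAC (low number). DP thymocytes go on rearranging until positive selection or death. The position of the TRAV and TRAJ segments in a chain is therefore commonly read as a record of how far rearrangement went in that cell.

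Sequences of the joins show what was read in each cell. The first set is of CDR3α sequences carried by more than 1 cell of cluster 8, and the second is of cluster 8 sequences that were frequent in the other sorted populations. The third is of joins outside the TRAV14 family. All are 5′ to 3′ on the coding strand, and capitals mark bases that matched neither the end of the V gene nor the start of the J segment of GENCODE M21.
CAASADYSNNRLTL, TRAV14N-1 with TRAJ7, cell 1: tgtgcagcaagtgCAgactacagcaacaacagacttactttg
CAASADYSNNRLTL, TRAV14N-1 with TRAJ7, cell 2: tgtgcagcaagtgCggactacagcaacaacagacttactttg
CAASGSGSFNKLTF, TRAV14N-1 with TRAJ4, cell 1: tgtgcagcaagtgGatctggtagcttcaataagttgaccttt
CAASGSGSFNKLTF, TRAV14N-1 with TRAJ4, cell 2: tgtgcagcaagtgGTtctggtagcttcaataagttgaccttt
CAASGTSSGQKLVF, TRAV14D-2 with TRAJ16: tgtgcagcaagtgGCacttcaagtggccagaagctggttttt
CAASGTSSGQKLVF, TRAV14N-3 with TRAJ16: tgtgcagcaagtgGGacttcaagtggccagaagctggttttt
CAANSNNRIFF, TRAV14N-1 and TRAV14-1 with TRAJ31: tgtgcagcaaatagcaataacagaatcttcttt
TRAV14N-1 with TRAJ13: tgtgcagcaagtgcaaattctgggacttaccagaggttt
TRAV14N-3 with TRAJ12: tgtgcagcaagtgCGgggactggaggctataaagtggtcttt
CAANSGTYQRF, TRAV14N-3 with TRAJ13: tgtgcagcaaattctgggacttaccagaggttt
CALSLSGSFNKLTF, TRAV12D-2 with TRAJ4: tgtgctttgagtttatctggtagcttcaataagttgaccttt
CAMDPDYSNNRLTL, TRAV13D-1 with TRAJ7: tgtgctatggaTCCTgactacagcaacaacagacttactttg
CAVKDSNNRLTL, TRAV7D-5 with TRAJ7: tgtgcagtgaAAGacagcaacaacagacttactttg
Each of the 4 repeated amino acid sequences was carried by 2 cells. In 3 of them the cells differed in the bases at the join, and in the fourth the bases were the same under 2 different TRAV14 copies.

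Cells of cluster 8 gave fewer RNA molecules than the other DP cells. Their median was 1087 unique molecular identifiers (UMIs, the count of RNA molecules read) per cell (1075 to 1105), with quartiles of 961 and 1229 and a range of 507 to 1932. The medians were 1592 in DP cells of cluster 6, 1545 in DP cells of cluster 4 and 2718 in CD4 SP cells, so cluster 8 stood at 0.683 of cluster 6 and 0.704 of cluster 4. Under 1000 UMIs lay 31.5% of cluster 8 cells, 5.17% of cluster 6 DP cells and 2.19% of cluster 4 DP cells. Cluster 8 made up 6.30% of all cells but 242 of the 413 cells under 1000 UMIs (58.6%). The distributions overlapped at their edges: 10 cluster 8 cells exceeded the cluster 6 median and 15 exceeded the cluster 4 median. Cluster 11, the deepest of the DP clusters, had a median of 5542 UMIs. The authors' clusters were made from these cells' expression, so the depth of a cluster is a description.

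**Figure D1:**
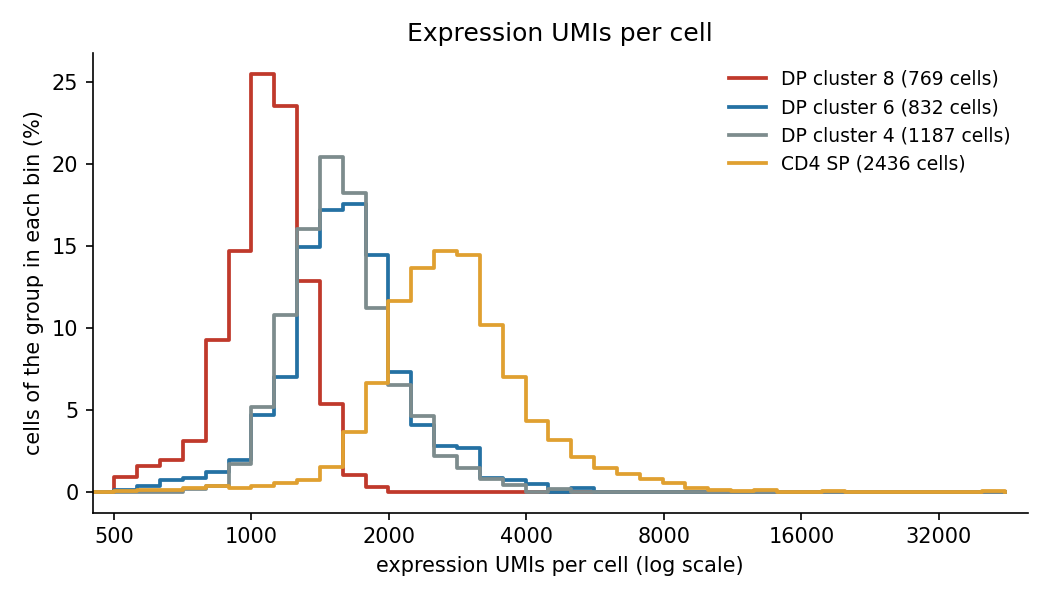
Share of cells (y axis, percent of the group) in bins of expression UMIs per cell (x axis, log scale) for DP cells of cluster 8, cluster 6 and cluster 4 and for CD4 SP cells. Cluster 8 peaks just above 1000 UMIs, with its median at 1087, left of the medians of 1592 (cluster 6), 1545 (cluster 4) and 2718 (CD4 SP).

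Fewer gene rows were detected in cluster 8, but not at equal depth. The median number of rows with a UMI was 760 in cluster 8, 968.5 in cluster 6 DP cells and 961 in cluster 4 DP cells. With each cell thinned to 500 UMIs (the exact expectation, no cell left out in these groups), the medians were 403, 390, 391 and 344 rows in cluster 8, cluster 6, cluster 4 and CD4 SP cells. The summed UMIs were also spread over more rows, since 454 rows held the upper 50% of UMIs in cluster 8, against 372 in cluster 6, 366 in cluster 4 and 168 in CD4 SP. The 50 highest rows of cluster 8 shared 42 with those of cluster 6, 40 with those of cluster 4 and 30 with those of CD4 SP.

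A productive α chain was found in few cluster 8 cells. The share was 27.96% (215 of 769, 24.8 to 31.3), close to the 30.6% of cluster 4 DP cells (363 of 1187, 28.0 to 33.3) and far under the 72.1% of cluster 6 DP cells (600 of 832, 68.9 to 75.1) and the 79.5% of CD4 SP cells. The difference was -44.2 percentage points against cluster 6 (-48.5 to -39.6) and -2.62 against cluster 4 (-6.78 to 1.60).

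Recovery differed between depth bins, so it was also set side by side within bins. Within cluster 8 it was 22.0% at 500 to 750 UMIs (the upper bound of a bin is excluded throughout) (9 of 41 cells), 18.4% at 750 to 1000 (37 of 201), 30.8% at 1000 to 1500 (155 of 503) and 58.3% at 1500 to 2500 (14 of 24). In the bin of 1000 to 1500 UMIs it was 30.8% in cluster 8, 67.7% in cluster 6, 24.8% in cluster 4 and 46.4% in CD4 SP cells. The difference in that bin was -36.9 points against cluster 6 (-43.5 to -29.8) and -15.6 points against CD4 SP (-30.0 to -1.52). Against cluster 4 it was 6.06 points (0.385 to 11.7), in the other direction from the value over all cells. Depth was not equal inside the bin. Its lowest step, log10 UMIs of 3 to 3.05, held 196 of 503 cells in cluster 8 and 39 of 300 in cluster 6. In cluster 4 it held 61 of 501 and in CD4 SP 8 of 56. This limit holds for each comparison made in this bin. With the groups reweighted to the depth bins of cluster 8, recovery was 27.96% in cluster 8, 58.5% in cluster 6 and 40.9% in CD4 SP. Cluster 4 has no cell under 750 UMIs, so it was set against the 94.7% of cluster 8 cells in the other bins: recovery was 28.3% in cluster 8 (206 of 728) and 27.7% in cluster 4.

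**Figure D2:**
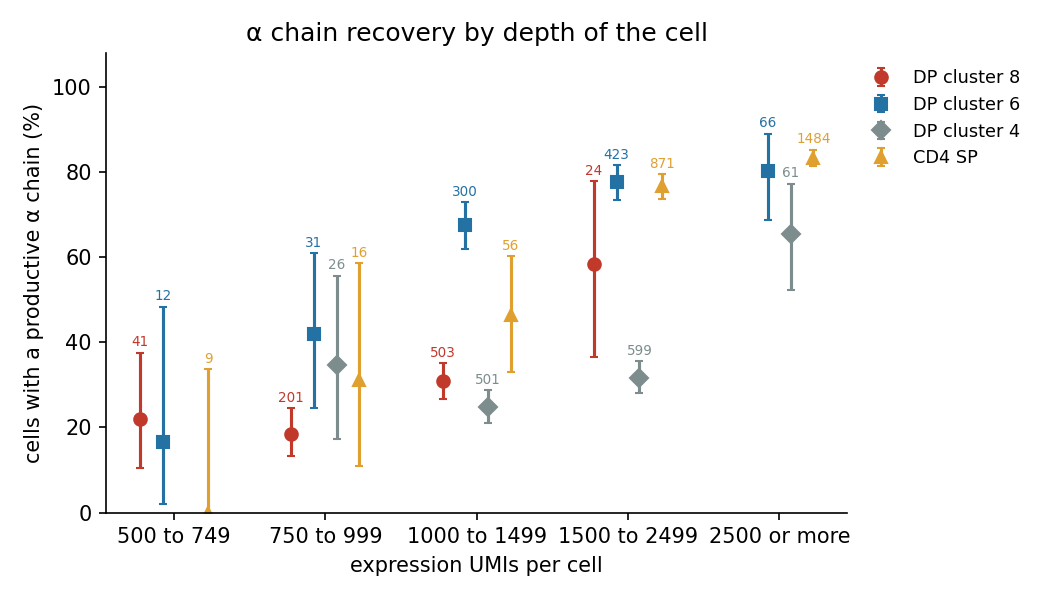
Share of cells with a productive α chain (y axis, percent, with exact 95% intervals) by expression UMIs per cell (x axis, bins) for DP cells of cluster 8, cluster 6 and cluster 4 and for CD4 SP cells, with the number of cells above each point. At 1000 to 1500 UMIs, cluster 8 (30.8%) lies near cluster 4 (24.8%) and under cluster 6 (67.7%).

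The chains that were recovered in cluster 8 were read from fewer molecules. A chain rested on a median of 10 UMIs in cluster 8 (quartiles 7 and 13, range 2 to 26), against 14 in cluster 6, 13 in cluster 4 and 19 in CD4 SP. Per 1000 expression UMIs of the same cell the medians were 8.71 in cluster 8, 8.87 in cluster 6, 8.12 in cluster 4 and 6.79 in CD4 SP. Cells of cluster 8 with a chain had a median of 1146 expression UMIs, and those without had 1071.5. More than 1 productive α chain was found in 1 cluster 8 cell, 20 cluster 6 cells and 14 cluster 4 cells. The repertoire values that follow rest on cells with exactly 1: 214 in cluster 8, 580 in cluster 6, 349 in cluster 4 and 1849 in CD4 SP. The sources used here do not say whether TCR gene rows entered the authors' clustering.

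The α chains of cluster 8 used TRAJ segments on the TRAC side. Segments numbered 20 or lower, called C-proximal here, were used by 52.8% of cluster 8 chains (113 of 214, 45.9 to 59.6), against 33.3% in cluster 6 (193 of 580, 29.4 to 37.3), 11.5% in cluster 4 (40 of 349, 8.32 to 15.3) and 41.6% in CD4 SP (769 of 1849, 39.3 to 43.9). Segments numbered 40 or higher, called V-proximal, were used by 4.67% in cluster 8 (10 of 214, 2.26 to 8.43), 21.7% in cluster 6, 53.9% in cluster 4 and 18.3% in CD4 SP. The C-proximal share of cluster 8 was thus 19.5 points over cluster 6 (11.5 to 27.4), 41.3 over cluster 4 (33.4 to 48.9) and 11.2 over CD4 SP (3.93 to 18.4). The median TRAJ number was 17 in cluster 8, 26 in cluster 6, 40 in cluster 4, 53 in the 45 chains of cluster 11 and 23 in CD4 SP. By GENCODE M21 (GRCm38, chromosome 14, plus strand), the median segment lay 18.7 kb before TRAC (54220521 to 54224206) in cluster 8, 26.0 kb in cluster 6, 42.5 kb in cluster 4 and 24.4 kb in CD4 SP.

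The difference from cluster 6 depended on the depth of the cells, while that from cluster 4 kept its direction in each depth bin. C-proximal shares in cluster 8 were 71.7% under 1000 UMIs (33 of 46), 47.1% at 1000 to 1500 UMIs (73 of 155) and 53.8% at 1500 or more (7 of 13). In cluster 6 they were 66.7% (10 of 15), 48.02% (97 of 202) and 23.7% (86 of 363), and in cluster 4 they were 33.3% (3 of 9), 13.7% (17 of 124) and 9.26% (20 of 216). At 1000 to 1500 UMIs, cluster 8 minus cluster 6 was -0.923 points (-11.7 to 9.88), and cluster 8 stood 33.4 points over cluster 4. Of the 580 cluster 6 chains, 363 came from cells with 1500 UMIs or more, against 13 of 214 in cluster 8.

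**Figure D3:**
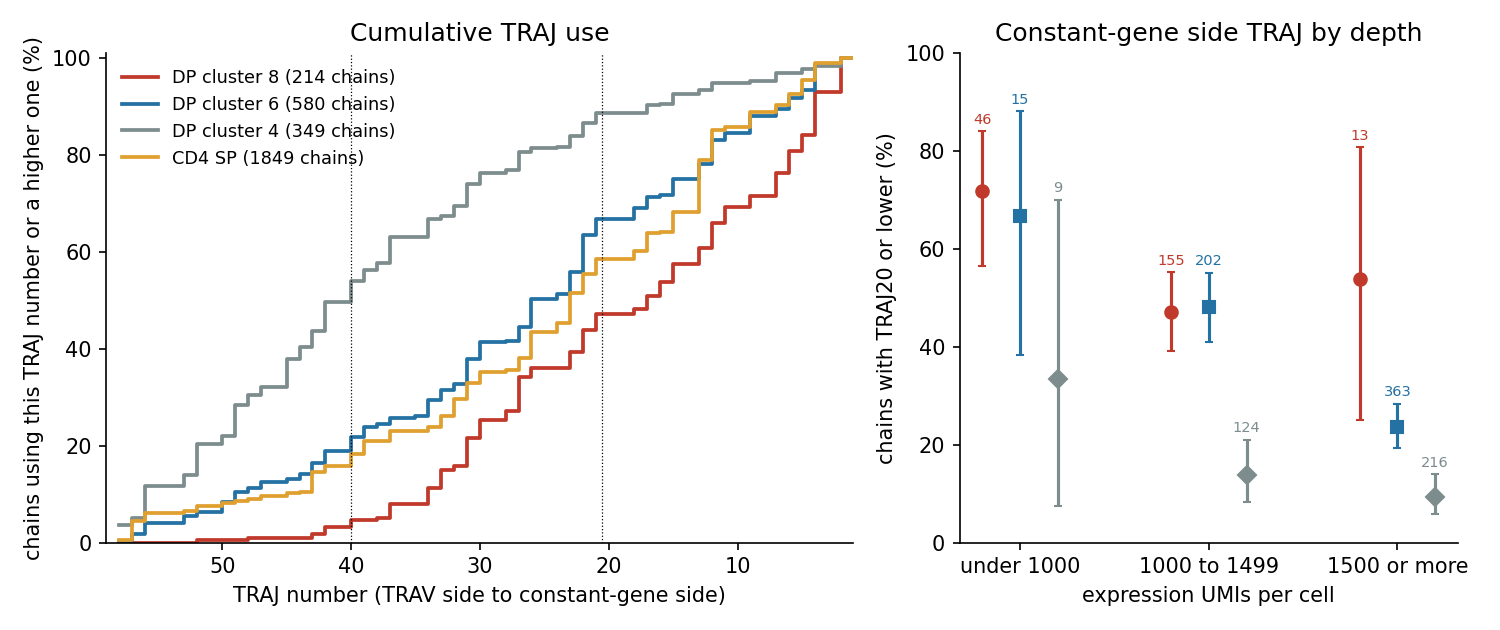
Left, cumulative share of α chains (y axis, percent) from the highest to the lowest TRAJ number (x axis) for DP cells of cluster 8, cluster 6 and cluster 4 and for CD4 SP cells, with dotted lines at the borders of the V-proximal and C-proximal ranges. Right, share of chains with TRAJ20 or lower (y axis, percent, exact 95% intervals) by UMIs of the cell (x axis), with the number of chains above each point: cluster 8 and cluster 6 meet at 1000 to 1500 UMIs (47.1% and 48.02%), and cluster 4 stays lower (13.7%).

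Many of the most used single segments were C-proximal, but not all. Shares of single segments were not matched for depth. TRAJ4 was the most used in cluster 8, in 19 of 214 chains (8.88%, 5.43 to 13.5), against 30 of 580 in cluster 6 (5.17%) and 2 of 349 in cluster 4 (0.573%). TRAJ2, the last segment before TRAC among those used, was carried by 15 of 214 chains in cluster 8 (7.01%, 3.98 to 11.3), against 9 in cluster 6 (1.55%), 6 in cluster 4 (1.72%) and 18 of 1849 in CD4 SP (0.973%). It was the only TRAJ segment in cluster 8 whose interval lay apart from both clusters. TRAJ6 was carried by 10 chains in cluster 8 and TRAJ11 by 7, against 13 and 8 in cluster 6 and none of either in cluster 4, where 0 of 349 allows up to 0.860%. Also used by 10 or more cluster 8 chains were TRAJ27 (15), TRAJ31 (12), TRAJ12 (11), TRAJ7 (10) and TRAJ22 (10), with intervals that overlapped those of both clusters. Of these, TRAJ27, TRAJ31 and TRAJ22 lie between the C-proximal and V-proximal ranges.

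At the other end of the array, segments common in cluster 4 were scarce in cluster 8. TRAJ48 or higher was used by 2 of 214 chains in cluster 8 (0.935%), 65 of 580 in cluster 6 (11.2%), 106 of 349 in cluster 4 (30.4%) and 31 of 45 in cluster 11. TRAJ45, TRAJ49, TRAJ56 and TRAJ58 were found in 0 of 214 cluster 8 chains, which allows a share of up to 1.40% each, against 20, 22, 23 and 13 chains in cluster 4. TRAJ52 was found in 1 cluster 8 chain and 22 cluster 4 chains. In cluster 6 these 5 segments were found in 4, 12, 13, 1 and 4 chains in the order TRAJ45, TRAJ49, TRAJ56, TRAJ58 and TRAJ52.

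Cluster 8 also drew its V genes from the copies of TRAV14 that lie farther from TRAJ. Mouse TRAV genes occur in duplicated blocks, and the TRAV14 copies fall into 3 sets along the locus: D copies farthest out, then N copies, then copies without a letter nearest to TRAJ. The nearest set was used by 12.6% of chains in cluster 8 (27 of 214, 8.48 to 17.8), 40.2% in cluster 6, 57.9% in cluster 4 and 32.6% in CD4 SP. N copies were used by 52.8% in cluster 8 (113 of 214, 45.9 to 59.6), 25.7% in cluster 6, 21.5% in cluster 4 and 37.6% in CD4 SP. D copies were used by 18.7% in cluster 8 (40 of 214, 13.7 to 24.6), 30.5% in cluster 6, 7.45% in cluster 4 and 29.5% in CD4 SP. The farthest copies were thus not the most used in cluster 8, and lay 11.8 points under cluster 6 (-18.2 to -4.87 for cluster 8 minus cluster 6) and 11.2 points over cluster 4 (5.27 to 17.6). The median V gene lay 960 kb before TRAC in cluster 8, 850 kb in cluster 6, 666 kb in cluster 4 and 960 kb in CD4 SP. Copies of TRAV14 are nearly identical and were taken as the contig table names them, so the copy given for a chain is uncertain.

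TRAV14N-3 was the most used V gene of cluster 8, in 53 of 214 chains (24.8%, 19.1 to 31.1), against 51 of 580 in cluster 6 (8.79%), 21 of 349 in cluster 4 (6.02%) and 191 of 1849 in CD4 SP (10.3%). TRAV14-3, the copy nearest to TRAJ, was used by 2 of 214 chains in cluster 8, 42 of 580 in cluster 6 and 92 of 349 in cluster 4. TRAV14-1 was used by 13 chains in cluster 8 (6.07%), against 133 in cluster 6 (22.9%) and 49 in cluster 4 (14.04%). TRAV14D-3-DV8 was used by 26 chains in cluster 8 (12.1%), against 152 in cluster 6 (26.2%) and 20 in cluster 4 (5.73%). TRAV14N-1 was used by 39 chains in cluster 8 (18.2%), against 59 in cluster 6 (10.2%) and 40 in cluster 4 (11.5%). TRAV14-2 was used by 12 chains in cluster 8 (5.61%, 2.93 to 9.59), against 58 in cluster 6 (10.0%) and 61 in cluster 4 (17.5%), and its interval lay under that of cluster 4. TRAV14N-2 was used by 21 chains in cluster 8 (9.81%), against 39 in cluster 6 (6.72%) and 14 in cluster 4 (4.01%), and TRAV14D-2 by 14 in cluster 8 (6.54%), against 25 in cluster 6 (4.31%) and 6 in cluster 4 (1.72%), with intervals that overlapped. The use of the nearest set also varied with depth in the comparison clusters: at 1000 to 1500 UMIs it was 13.5% in cluster 8 (21 of 155, 8.59 to 19.96), 24.8% in cluster 6 (50 of 202, 19.0 to 31.3) and 49.2% in cluster 4 (61 of 124, 40.1 to 58.3).

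**Figure D4:**
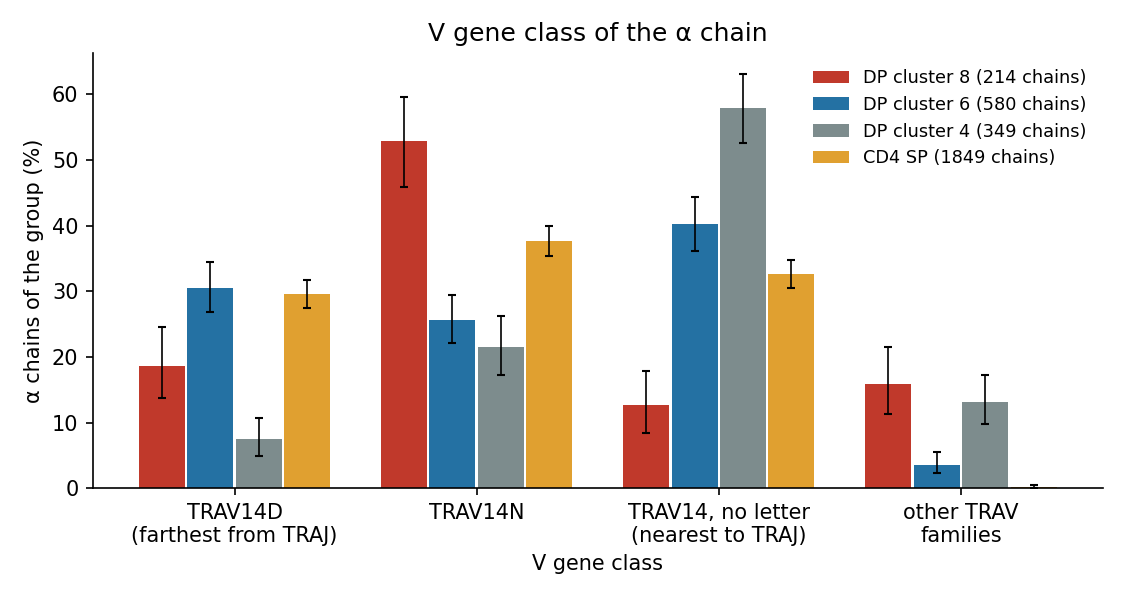
Share of α chains (y axis, percent, exact 95% intervals) by V gene class (x axis), with the TRAV14 copies ordered from the farthest to the nearest to TRAJ, for DP cells of cluster 8, cluster 6 and cluster 4 and for CD4 SP cells. The N copies are highest in cluster 8 (52.8%) and the nearest copies lowest there (12.6%).

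In cluster 8 the C-proximal share fell from D to N to the nearest copies, with intervals that overlapped. C-proximal TRAJ was used by 70.0% of chains with a D copy (28 of 40, 53.5 to 83.4). With an N copy it was 52.2% (59 of 113, 42.6 to 61.7), and with a copy of the nearest set 33.3% (9 of 27). The same sets had 52.0%, 43.0% and 12.9% in cluster 6, and 15.4%, 17.3% and 7.43% in cluster 4. In CD4 SP they had 59.3%, 56.3% and 8.46%. Within the nearest set, cluster 8 thus had a C-proximal share of 33.3% (16.5 to 54.0), against 12.9% in cluster 6 (8.86 to 17.9) and 7.43% in cluster 4 (4.22 to 12.0). These shares were not matched for depth. Of the nearest-set chains, 182 of 233 in cluster 6 came from cells with 1500 UMIs or more, against 1 of 27 in cluster 8.

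Many cluster 8 chains had a V gene outside the TRAV14 family, although all cells were gated on surface Vα2. The share was 15.9% in cluster 8 (34 of 214, 11.3 to 21.5), 3.62% in cluster 6 (21 of 580), 13.2% in cluster 4 (46 of 349) and 0.216% in CD4 SP (4 of 1849). It stood 12.3 points over cluster 6 (7.28 to 18.0), 2.71 over cluster 4 (-3.41 to 9.24) and 15.7 over CD4 SP (11.03 to 21.3). At 1000 to 1500 UMIs it was 16.8% in cluster 8 (26 of 155), 6.44% in cluster 6 (13 of 202) and 15.3% in cluster 4 (19 of 124). The 34 chains used 22 V genes of 6 families: 9 chains TRAV12, 8 TRAV13, 7 TRAV6, 4 TRAV16, 3 TRAV7 and 3 TRAV9. D copies of these families made up 14 of the 34, N copies 11 and genes without a letter 9, against 10, 9 and 27 of 46 in cluster 4.

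These chains rested on about as many UMIs as the TRAV14 chains of the same cluster. Their median was 10.5 UMIs in cluster 8 (range 2 to 21), against 10 for the 180 TRAV14 chains, and their cells had medians of 1236 and 1139 expression UMIs. C-proximal TRAJ was used by 17 of the 34 (50.0%, 32.4 to 67.6) and by 96 of the 180 TRAV14 chains (53.3%, 45.8 to 60.8). By family, C-proximal TRAJ was used by 5 of 9 TRAV12, 7 of 8 TRAV13, 1 of 7 TRAV6, 1 of 4 TRAV16, 2 of 3 TRAV7 and 1 of 3 TRAV9 chains. In cluster 4, 8 of 46 chains outside the family were C-proximal (17.4%, 7.82 to 31.4), and 7 of 21 were in cluster 6 (33.3%, 14.6 to 57.0).

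Most cluster 8 chains were seen once. The 214 cells carried 210 different CDR3α amino acid sequences, and all 214 differed when nucleotide sequence, V gene and J segment were combined. In the same number of cells, 202 different sequences were expected in cluster 6, 206 in cluster 4 and 165 in CD4 SP. Of the repeated sequences, CAASADYSNNRLTL had the most cells outside DP. It was found in 2 cluster 8 cells, no other DP cell, no CD4 SP cell, 27 CD25+ and 7 Foxp3lo Treg progenitors, 8 CD73- Treg and 60 CD73+ Treg cells. The TRAV14N-1 to TRAJ13 sequence, the CDR3α of cluster 8 most frequent elsewhere, was found in 1 cluster 8 cell, 4 cluster 6 cells, 1 cluster 4 cell, 5 DP cells of the smaller clusters and 113 CD4 SP cells. It was also carried by 60 CD25+ and 38 Foxp3lo Treg progenitors, 1 CD73- Treg and 4 CD73+ Treg cells. The TRAV14N-3 to TRAJ12 sequence was found in 1 cluster 8 cell, 4 cluster 6 cells, 48 CD4 SP cells, 20 CD25+ and 19 Foxp3lo Treg progenitors and 3 CD73+ Treg cells.

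The CDR3α of 28.0% of cluster 8 cells (60 of 214, 22.1 to 34.6) was found in at least 1 sorted population other than DP, against 45.3% in cluster 6 (263 of 580) and 23.2% in cluster 4 (81 of 349). The share was 17.3 points under cluster 6 (-24.5 to -9.60 for cluster 8 minus cluster 6) and 4.83 over cluster 4 (-2.78 to 12.7). For CD4 SP alone it was 17.3% in cluster 8, 27.8% in cluster 6 and 11.5% in cluster 4, and for either Treg population 14.02%, 21.7% and 7.74% in the same order. The other populations differ in size, so the share was also computed as the exact expectation with 223 cells of each, the number in CD73- Treg. It was then 13.6% in cluster 8, 23.3% in cluster 6 and 7.74% in cluster 4. Per population, the expected shares in cluster 8 ran from 4.22% to 6.54%, a span inside the counting interval of the CD73- Treg value alone (3.62 to 10.7). Of the 34 cluster 8 chains outside the TRAV14 family, 0 were shared with a population other than DP. Within TRAV14 the shared part was 33.3% in cluster 8 (60 of 180), 47.0% in cluster 6 (263 of 559) and 25.7% in cluster 4 (78 of 303). Cluster 8 minus cluster 6 was then -13.5 points (-21.6 to -5.03).

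With nucleotide sequence, V gene and J segment required to match, 10 of 214 cluster 8 cells shared a chain (4.67%, 2.26 to 8.43), against 93 of 580 in cluster 6 (16.0%, 13.1 to 19.3) and 8 of 349 in cluster 4 (2.29%). Without the V gene, since near-identical copies can split 1 sequence, the share was 16.8% in cluster 8. By that rule it was -13.0 points for cluster 8 minus cluster 6 (-19.2 to -6.21) and 3.07 for cluster 8 minus cluster 4 (-3.19 to 9.72). Among DP cells, 26 cluster 8 cells had a CDR3α seen in cluster 6 and 6 had one seen in cluster 4, but cluster 6 offers more chains to match. Counted the other way, 46 of 580 cluster 6 cells (7.93%, 5.86 to 10.4) had a CDR3α seen in cluster 8. In cluster 4 these were 7 of 349 cells (2.01%, 0.810 to 4.09). Sharing was close across the C-proximal and middle TRAJ ranges: it was 27.4% of C-proximal chains in cluster 8 (31 of 113), 29.7% of middle chains (27 of 91) and 2 of 10 V-proximal chains.

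Joins in cluster 8 were close in length to those of the other DP clusters. Bases assigned to neither V nor J averaged 2.88 ± 1.97 in cluster 8 (SD over 208 chains that could be split), 2.78 ± 2.04 in cluster 6, 3.03 ± 2.21 in cluster 4 and 2.52 ± 2.01 in CD4 SP. Joins with no such base made up 9.62% in cluster 8 (20 of 208, 5.97 to 14.5), 13.0% in cluster 6, 16.6% in cluster 4 and 19.1% in CD4 SP. Chains of cluster 8 shared with another sorted population had 1.76 ± 1.26 such bases (58 chains), against 3.31 ± 2.03 in those not shared (150 chains), and cluster 6 had 1.87 ± 1.55 and 3.54 ± 2.096. The CDR3α averaged 13.6 ± 1.32 residues in cluster 8, with a range of 10 to 17, and 13.4 ± 1.26 in cluster 6 and 13.8 ± 1.47 in cluster 4.

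In summed expression, cluster 8 lay nearest to cluster 4. UMIs were summed per group and scaled to equal totals (CPM), and the distance was the root mean square of the log2 ratios of all rows that reached 50 CPM in either group. The distance of cluster 8 was 0.677 to cluster 6 (0.667 to 0.687, 3931 rows) and 0.345 to cluster 4 (0.338 to 0.352, 3847 rows), while cluster 6 and cluster 4 were 0.683 apart. Counting error alone gives 0.212 and 0.192 for the pairs of cluster 8 with cluster 6 and cluster 4, and with it removed the distances were 0.643 and 0.287. The distance of cluster 8 was 0.980 to the 129 DP cells of other clusters, 1.66 to cluster 11, 1.38 to CD4 SP and 1.39 to 1.62 to the Treg progenitors and Tregs. CD4 SP cells lay 1.04 from cluster 6 and 1.37 from cluster 4. Since the clusters were made from the same counts, these distances are descriptions.

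Few rows set cluster 8 apart from cluster 4. Against cluster 4, 26 rows were 2-fold or more higher in cluster 8 (0.676% of rows) and 15 were 2-fold or more lower (0.39%). Against cluster 6, 216 were higher (5.49%) and 125 lower (3.18%). The split depends on the scaling. The trimmed-mean factors of edgeR move the median log2 ratio from 0.11 to -0.01 against cluster 4 and from 0.08 to -0.06 against cluster 6. With these factors the counts were 15 higher and 25 lower of 3811 rows against cluster 4. Against cluster 6 they were 168 higher and 160 lower of 3915 rows. Relative to both clusters at once, 9 rows were 2-fold or more higher in cluster 8 and 7 were lower, of 4031 rows. Without gene names no row can be described further.

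**Figure D5:**
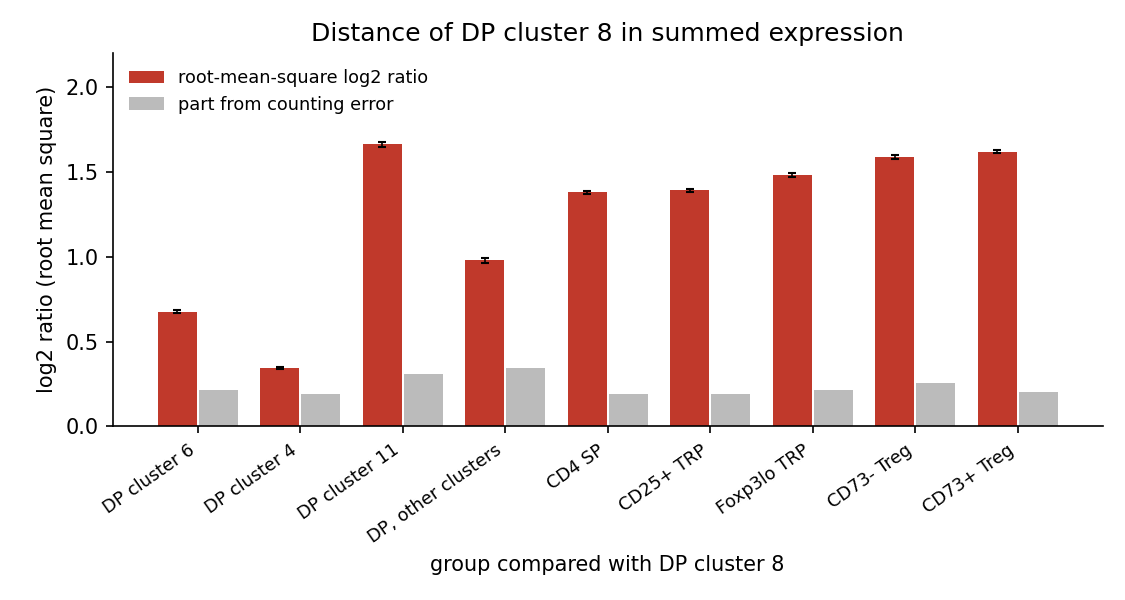
Root-mean-square log2 ratio of summed expression between DP cells of cluster 8 and each other group (y axis), with 95% intervals for counting error, beside the part that counting error alone gives; TRP stands for Treg progenitors. The distance is lowest to cluster 4 (0.345), then cluster 6 (0.677), and highest to cluster 11 (1.66).

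Cells of cluster 8 with and without a recovered α chain were close to each other. Their distance was 0.433, of which counting error gives 0.361, leaving 0.239. Cells under 1000 UMIs lay 0.450 from those at 1000 UMIs or more, with 0.383 from counting error and 0.238 left. The cells with a chain lay 0.722 from cluster 6 and 0.463 from cluster 4, and those without lay 0.718 and 0.367 from them. With counting error removed, cells with a chain lay 0.642 from cluster 6 and 0.339 from cluster 4, and those without lay 0.678 and 0.295. Both kinds of cell were thus nearer to cluster 4 than to cluster 6, although the TRAJ use of the cells with a chain was farther from cluster 4.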

How the data were processed

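Gene expression, hashtag and TCRα-enriched libraries came from the same cells by the 10x Genomics 5' v2 kit, per the labels' protocols. Tools listed are Seurat 3.1.1 and Cell Ranger 3.1.0, and builds GRCm38 and mm10, per the submitters' processing notes. The sources used here do not give cell filters, hashtag calling or doublet handling, and no doublet caller was run. UMI counts deposited by the authors cover 14790 rows, 164 of them empty, and 12208 cells (34190869 UMIs). A second matrix deposited by the authors holds the natural log of 1 plus 10000 times a cell's share of UMIs (largest difference 6.2e-15), and served as an alternative. Of 12771 barcodes in the deposited contig table (21598 contigs, with UMI counts), 7379 were in the matrix. The deposited clonotype matched for 6982 of 6982 cells that carry one. The plain Treg hashtag was taken to be CD73- Treg.

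Cluster numbers are the authors'. The members and lists were chosen with earlier results of these data known. The rule for named genes (log2 ratios, 10 from each end) and the marker lists could not be applied to unnamed rows. TRAJ and TRAV segments were named when 10 or more cluster 8 cells used them or when their interval lay apart from cluster 6 or cluster 4. CDR3α sequences were to be named when 3 or more cluster 8 cells carried them, which none did, or when shared with CD4 SP or Treg cells, of which the most frequent are given. Printed joins outside the TRAV14 family were chosen after their values were seen.

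Repertoire values use cells with exactly 1 productive α chain. All 106 V and J segments used were found in GENCODE M21. Differences of shares have Newcombe's interval built from the exact bounds. For a count of 0, the share of 3 cells is the limit. Log2 ratios use a prior of 1 CPM, and their interval comes from the Poisson variance of the counts. The distance was tested on simulated Poisson counts drawn from the cluster 8 profile. The distance assumes the same kind of noise, so that test does not cover variation between cells. Tools were scipy 1.17.1, pandas 2.3.3 and, for scaling factors only, edgeR 4.0.16. Summed UMIs were 838703 in cluster 8, 1402174 in cluster 6 and 1940745 in cluster 4. Alternatives varied depth, chain rules, clonotype, TRAJ border, scaling, prior and filter.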

Additional observations from a re-analysis of the deposited data

Results flagged for a closer look

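Contigs outside the productive α chain comparison were read in a few cluster 8 cells. Their counts, 4 and 5 cells, lie over the 3 cells (0.390% of 769) taken as the limit for a count of 0. That limit is no benchmark for a count above 0, and both intervals include it. As shares of all cells, both point values are lower than in clusters 6 and 4. A productive β chain of a V gene other than TRBV19 was read in 4 of 769 cluster 8 cells (0.520%, 0.142 to 1.33). The counts were 8 of 832 cluster 6 DP cells (0.962%, 0.416 to 1.89) and 8 of 1187 cluster 4 DP cells (0.674%, 0.291 to 1.32). These intervals overlapped. The 4 cells had 2 chains of TRBV16, 1 of TRBV12-1 and 1 of TRBV12-2, on 5 to 8 UMIs, while 12 cluster 8 cells had a productive TRBV19 chain on 6 to 23 UMIs. The library was enriched for α. Recovery of β chains differed between DP groups of this library, and the cause was not tested. In cluster 11 a productive β chain was read in 43 of 104 DP cells (41.3%). A productive β chain of any V gene was read in 16 of 769 cluster 8 cells (2.08%), 95 of 832 cluster 6 cells (11.4%) and 70 of 1187 cluster 4 cells (5.90%). Of those cells, 4 of 16, 8 of 95 and 8 of 70 had another V gene, so cluster 8 was not lowest on that base. Any α contig was read in 216 cluster 8 cells, 603 cluster 6 cells and 371 cluster 4 cells. A nonproductive α contig was read in 5 of 769 cluster 8 cells (0.650%, 0.211 to 1.51), against 38 of 832 in cluster 6 (4.57%) and 29 of 1187 in cluster 4 (2.44%). Among cells with any α contig these were 5 of 216, 38 of 603 and 29 of 371, so cluster 8 was lowest on that base. Of the 5, 4 also had a productive α chain, although the labels give 1 TCRα allele.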

How the results depend on the processing

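Of 98 comparisons of a result with an alternative setting, 74 stayed inside the interval of the reported value, 23 moved outside it, and 1 difference whose interval excluded 0 changed sign. No paired analysis was possible because there was 1 pool and 1 set of libraries. The difference whose interval excluded 0 and that changed sign was the C-proximal share of cluster 8 minus cluster 6. It was -0.923 points (-11.7 to 9.88) in cells with 1000 to 1500 UMIs, a window chosen after seeing the data (upper bound excluded). At 1000 UMIs or more it was 15.2. Minus cluster 4, that window gave 33.4 points, and a border at TRAJ11 gave 29.0, with 34.1% in cluster 8. Recovery of an α chain in cluster 8 was 32.1% at 1000 UMIs or more. Minus cluster 6 it was -36.9 points in the window and -30.6 with reweighted bins, while minus cluster 4 it was -2.62 over all cells (interval across 0) and changed sign, at 1.58 with 1000 UMIs or more, 6.06 (0.385 to 11.7) in the window and 0.593 with reweighted bins. Sharing minus cluster 4, at 4.83 over all cells (interval across 0), was -0.161 in the window. The median depth was 1146 UMIs in cells with exactly 1 α chain. CDR3α sharing in cluster 8 was 4.67% by nucleotide sequence with V and J, 16.8% by nucleotide sequence with J (added after seeing the data) and 13.6% with 223 cells per population. The distance to cluster 6 was 0.585 with a prior of 10 CPM, 0.698 with a filter of 20 CPM, 0.849 with none, 0.652 in cells of 500 to 1500 UMIs and 0.705 without the top 5% of cells. The distance to cluster 4 was 0.334 with either trimmed-mean or median-of-ratios scaling, 0.309 with the prior, 0.411 with the filter of 20 CPM, 0.660 with no filter, 0.363 at 1000 UMIs or more and 0.356 without the top 5%. It stayed under that to cluster 6 in each of these settings. Counts of 2-fold rows with no filter were 1434 higher and 952 lower of 12107 rows against cluster 6. Against cluster 4 they were 888 higher and 848 lower of 12305 rows. With 20 CPM they were 436 and 246 of 6562 rows against cluster 6, and 95 and 61 of 6516 against cluster 4. A prior of 10 CPM gave 13 higher and 10 lower of 3847 rows against cluster 4, and 171 and 107 of 3931 against cluster 6. The share outside TRAV14 stayed within its interval in every setting tried. With 214 chains, shares of single segments in cluster 8 are limited to about the width of their printed intervals.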
